A study of Mus musculus with 6 samples.

Results

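The microRNA miR-21 was followed through both arms of its hairpin, mmu-miR-21-5p (the guide arm) and mmu-miR-21-3p (the passenger arm), which were taken by name as 2 of the 778 mature miRNAs listed in the table. Small RNA had been sequenced from mouse primary mesangial cells, the contractile pericyte-like cells of the kidney glomerulus, at passages 3 to 6 in medium with 25.5 mM glucose and 20% serum. The Control group held 3 libraries without added cytokine, and the TGF-beta1 group held 3 libraries from cells kept for 72 h with TGF-β1 at a dose of 10 ng/ml, so the high glucose was common to both groups. The labels give neither a vehicle for the Control cells nor the strain and age of the mice, and they do not say whether the 3 libraries of a group came from separate cultures. P-values therefore measure the spread between these libraries, which may be technical.

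A miRNA is cut from a hairpin by Drosha and Dicer as a duplex, of which one strand, the guide, is loaded into an Argonaute protein and pairs with target mRNAs through its seed, while the other strand, the passenger, is mostly degraded. TGF-β1 acts through receptor-activated Smad proteins, which are known to raise miR-21 both by transcription and by binding a CAGAC sequence in the stem of its precursor and favouring its cutting by Drosha. The guide arm is abundant in many cultured cells and in fibrotic kidney, and its targets include the Smad inhibitor Smad7.

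Both mature arms are shown because the seed, the first base and the CAGAC sequence set them apart. The sequences are the RefSeq entries for GRCm38.p6, where the miRNA is named miR-21a, 5′ to 3′, with the seed (bases 2 to 8) in capitals. The near-copies miR-21b and miR-21c are printed to show how close they come to the guide arm.
mmu-miR-21a-5p: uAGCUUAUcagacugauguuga
mmu-miR-21a-3p: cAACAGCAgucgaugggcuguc
mmu-miR-21b: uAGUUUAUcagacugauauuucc
mmu-miR-21c: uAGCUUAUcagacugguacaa
The guide arm begins with U and holds 8 G or C bases of 22 (36.4%), whereas the passenger arm begins with C and holds 13 of 22 (59.1%). The guide seed is shared with miR-21c, and miR-21c is identical to the guide arm over its first 15 bases. Counted from 1 at the 5′ end of the guide arm, with its base first, miR-21c differs by A16G, G18A, U19C, U20A and G21A. The corresponding differences of miR-21b are C4U, G18A, G21U and A22C, of which C4U lies in the seed. Differences in length come on top, as miR-21c has 21 bases and miR-21b 23, against 22 in the guide arm. No values of miR-21b or miR-21c were analysed here. Among the 583 rows that matched a RefSeq sequence, 0 other rows carried the seed of either arm, and 0 rows of the table had the same values as either arm in all libraries.

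CAGAC occurs in the guide arm at bases 9 to 13, next to the seed, and is in capitals in this second print.
mmu-miR-21a-5p: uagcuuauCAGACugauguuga
The same letters, searched on the RNA strand alone, were found in 80 of 1005 RefSeq mouse hairpins (7.96%) and in 32 of 1738 mature miRNAs (1.84%). The predicted duplex of both arms held 19 base pairs at −24.2 kcal/mol. On the NCBIM37 build, which is the mouse build the study used for its other sequencing, GENCODE places the hairpin on the minus strand at chr11:86397569-86397660, with the guide arm at chr11:86397622-86397643 and the passenger arm at chr11:86397584-86397605. The hairpin lies inside the 3′ UTR (chr11:86397367-86398812) in the last exon of Vmp1, a protein-coding gene for a vacuole membrane protein of autophagy that is read on the same strand.

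Values are reads for each 1000000 reads of the library's total (RPM). The total was 16478281 to 17623671 reads in Control and 17086815 to 20169254 reads in TGF-beta1, so 1 read was worth 0.0496 to 0.0607 RPM. Reads outside the listed miRNAs made up 20.4% ± 0.142 of the total in Control and 27.7% ± 0.752 in TGF-beta1 (SD, n = 3 each). This takes each read as counted in 1 row. miR-199a-3p and miR-199b-3p, of the same sequence, had nearly equal Control means of 601.321 and 601.283 RPM. Reads that match several miRNAs may therefore have been counted in each row, which would make the listed sum too high, and this was not tested. Mesenchymal miRNAs (miR-143, miR-145, miR-199a and miR-214) had 4 of 4 rows and summed to 2575 to 2946 RPM in Control and 2603 to 3066 in TGF-beta1, mostly miR-143-3p. Of the 4, miR-145-5p rose by 0.92 on the log2 scale (limma, adjusted p = 0.00235), miR-199a-3p fell by 0.31 (0.0219) and 2 did not pass. Blood miRNAs, of which only 2 of 4 had a row (miR-142-5p and miR-451), summed to at most 0.60 RPM. Endothelial ones, with 2 of 2 rows, summed to at most 0.298. Epithelial miRNAs summed to 315.0 to 329.0 RPM in Control and 342.6 to 367.1 in TGF-beta1, nearly all of it miR-192-5p, a miRNA of renal tubules that mesangial cells also make. Of the 7, 5 were tested, of which miR-192-5p (0.23) and miR-194-5p (0.54) rose and miR-200a-3p (−2.64), miR-200b-3p (−2.27) and miR-429-3p (−1.94) fell, the last 3 from 12.7, 6.74 and 3.99 RPM in Control, while miR-200c-3p was at most at a mean of 0.0372 RPM in either group. By the same limma test 49.3% of all 408 miRNAs tested passed, 71 higher and 130 lower, and 32 fell by more than 1 on the log2 scale. Muscle miRNAs reached 3285 to 3646 RPM, nearly all of it miR-206-3p. The part of other cells in the miR-21 values was not tested.

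The guide arm was one of the most abundant miRNAs in these cells, and its change was not called against library totals. In Control it stood at 15903, 15446 and 14793 RPM in replicates 1 to 3. In TGF-beta1 it stood at 18668, 15346 and 16748 RPM. TGF-beta1 replicate 2 fell below Control replicates 1 and 2, so the groups overlapped, whereas 56.9% of the 408 miRNAs tested had groups that did not overlap. The guide arm ranked 6 in all 6 libraries, behind only let-7c, let-7f, let-7b, let-7a and let-7e.

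The mean of the guide arm was 15381 ± 558 RPM in Control and 16920.5 ± 1668 in TGF-beta1 (SD, n = 3 each). The change on the log2(RPM + 1) scale was 0.13 ± 0.07 (SE), with a 95% interval of −0.03 to 0.30, and it did not pass the test (limma with Benjamini-Hochberg adjustment over 408 miRNAs, adjusted p = 0.163). As a ratio this was 1.10-fold, with an interval of 0.977 to 1.23. By the same test 49.3% of all miRNAs passed, 71 higher and 130 lower, and 12.3% also changed by more than 1 on the log2 scale. The guide arm was 120th from the top in order of change and 334th in order of its size.

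**Figure D1:**
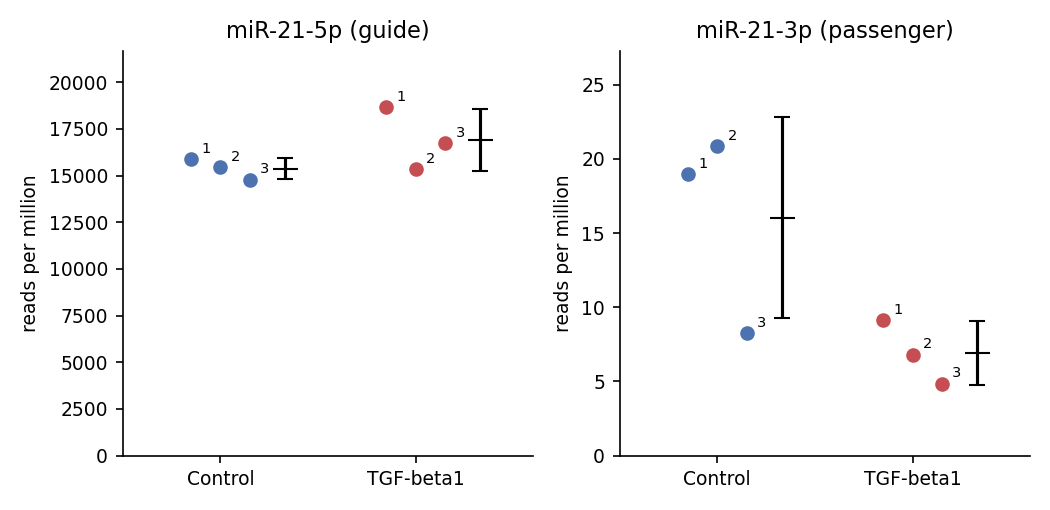
RPM of the guide arm (left) and the passenger arm (right) in each library, with the replicate number beside each point and the mean ± SD (n = 3) as a bar to the right of each group. The guide arm of the TGF-beta1 libraries, 15346 to 18668 RPM, overlaps that of Control, while the passenger arm is at 4.86 to 9.12 RPM in TGF-beta1 and at 8.28 to 20.9 RPM in Control.

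The call for the guide arm turned on the denominator. The median change of all 408 miRNAs was −0.17 against library totals, so the guide arm stood 0.31 above that median. With TMM scaling, which centres the bulk of the listed miRNAs and left their median at −0.07, the guide arm rose by 0.29 ± 0.08 (SE), with an interval of 0.11 to 0.46 (limma, adjusted p = 0.0125). This was 1.22-fold, from 1.08 to 1.38, and 46.1% of all miRNAs passed the same test, 83 higher and 105 lower. Over 4 scalings other than library totals the change was 0.27 to 0.35 (limma, adjusted p from 0.0101 to 0.0382). None of these 4 took the change past 1, and the highest upper limit among them was 1.46-fold.

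Set against the listed miRNA reads alone, the guide arm made up 1.99%, 1.94% and 1.86% in Control replicates 1 to 3. In TGF-beta1 it made up 2.61%, 2.10% and 2.32%. All 3 TGF-beta1 libraries were above all 3 Control libraries, with means of 1.93% ± 0.0682 and 2.34% ± 0.255 and a difference of 0.41 percentage points. How many of all miRNAs had groups fully apart on listed reads was not counted. On RPM, 56.9% of the 408 tested did, so separation alone does not mark out the guide arm. The exact two-sided permutation test gave p = 0.1, the smallest that 3 against 3 libraries can give (0.1 also after adjustment over the 2 library measures tested). Of the whole library the guide arm took 1.48 to 1.59% in Control and 1.53 to 1.87% in TGF-beta1, which overlapped. The larger share of reads outside the listed miRNAs in TGF-beta1, given above, is the difference between these denominators. Listed reads are the sum of the rows, in which a read may count more than once.

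Single libraries also moved the call. Against library totals, leaving out each library in turn gave 0.06 to 0.20, and the change passed only without TGF-beta1 replicate 2 (0.20, limma adjusted p = 0.0475). With TMM scaling the range was 0.24 to 0.38, and the rise did not pass without Control replicate 1 (adjusted p = 0.0515) or without Control replicate 2 (adjusted p = 0.0546).

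**Figure D2:**
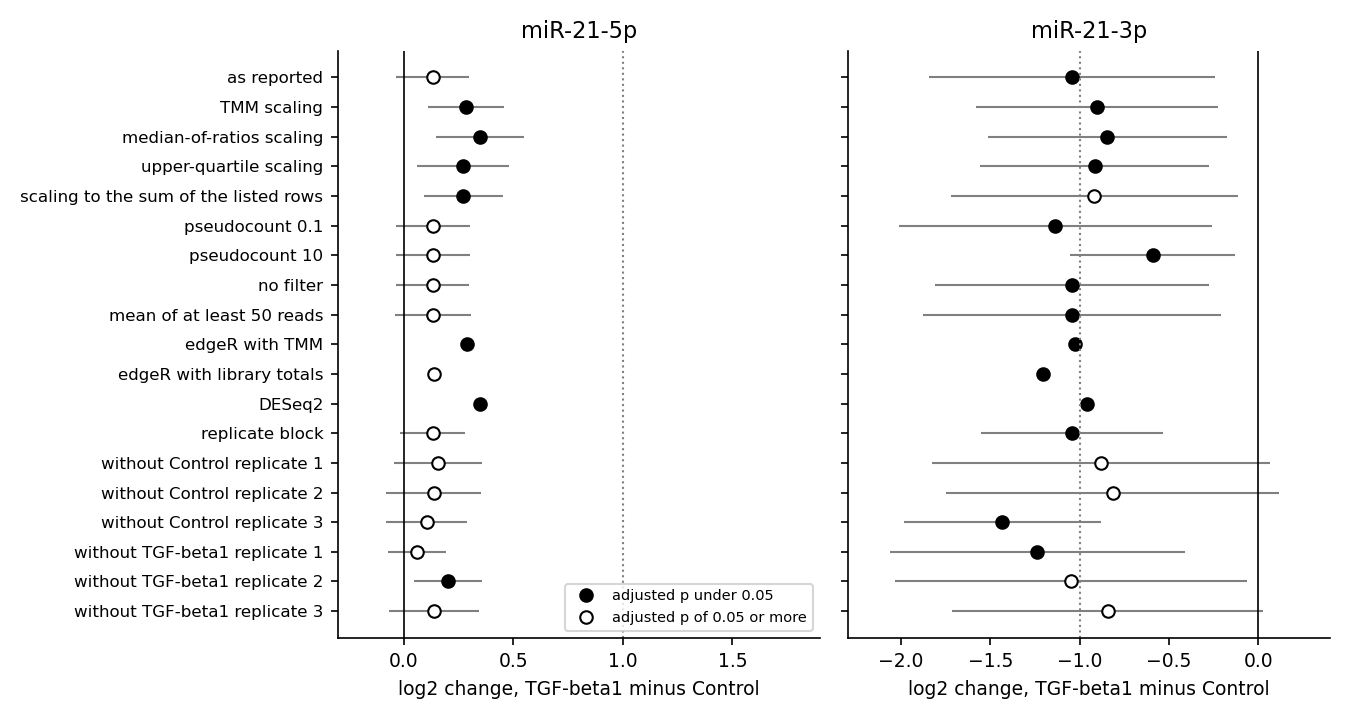
Log2 change (TGF-beta1 minus Control, horizontal axis) of the guide arm (left) and the passenger arm (right) under each processing setting, with 95% intervals for the limma fits and filled points where the adjusted p is under 0.05. All points of the guide arm lie between 0.06 and 0.35, left of the dotted line at 1, and all points of the passenger arm lie between −1.43 and −0.59.

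The passenger arm was scarce and lower with TGF-β1. It stood at 19.0, 20.9 and 8.28 RPM in Control replicates 1 to 3, from 313, 348 and 146 reads. In TGF-beta1 it stood at 9.12, 6.81 and 4.86 RPM, from 184, 122 and 83 reads. Control replicate 3 was below TGF-beta1 replicate 1, so the groups overlapped. Its rank was the same in Control replicates 1 and 2, which was above the rank of 186 in Control replicate 3 and of 180, 185 and 230 in TGF-beta1 replicates 1 to 3.

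The mean of the passenger arm was 16.0 ± 6.79 RPM in Control and 6.93 ± 2.14 in TGF-beta1 (SD, n = 3 each), a ratio of means of 0.432. It fell by 1.04 ± 0.35 (SE) on the log2 scale, with an interval of −1.84 to −0.24 (limma, adjusted p = 0.0367). This was 0.485-fold, from 0.279 to 0.845, and lay just past the threshold of 1 that only 12.3% of all miRNAs passed together with the adjusted p. With TMM scaling the change was −0.90 ± 0.30 (limma, adjusted p = 0.0321), and it was short of 1 under each of the 4 other scalings. Scaling to the sum of the listed rows, one of these 4, ended the call (−0.92, limma adjusted p = 0.0629).

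In the passenger arm, Control replicate 3 stood apart from the other Control libraries. It was 1.17 lower on the log2 scale there than the mean of Control replicates 1 and 2, whereas the guide arm was 0.08 lower and the median miRNA 0.12 lower. Counting the passenger arm itself, 6 of 408 miRNAs were as low there, among them 3 of the 80 miRNAs of like level (8.02 to 32.1 RPM). Without Control replicate 3 the fall of the passenger arm was −1.43 (limma, adjusted p = 0.00223), and without TGF-beta1 replicate 1 it was −1.24 (adjusted p = 0.0215). The call was lost without Control replicate 1 (−0.88, adjusted p = 0.123), Control replicate 2 (−0.82, 0.140), TGF-beta1 replicate 2 (−1.05, 0.0831) or TGF-beta1 replicate 3 (−0.84, 0.104).

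The ratio of the arms needs no scaling between libraries, because both arms share the same total. There were 837.2, 740.4 and 1786 guide reads for each passenger read in Control replicates 1 to 3. In TGF-beta1 there were 2046, 2253 and 3448. All 3 TGF-beta1 libraries were above all 3 Control libraries, with Control replicate 3 close under TGF-beta1 replicate 1. Libraries of the groups were fully apart in this sense for 41.7% of the 84 hairpins whose arms both averaged at least 1 RPM.

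As a share, the passenger arm made up 11.9 (95% exact interval 10.6 to 13.3), 13.5 (12.1 to 15.0) and 5.60 (4.73 to 6.58) of every 10000 miR-21 reads in Control replicates 1 to 3. In TGF-beta1 it made up 4.88 (4.20 to 5.64), 4.44 (3.68 to 5.30) and 2.90 (2.31 to 3.59). These Clopper-Pearson intervals cover counting error only, and that of Control replicate 3 overlapped those of TGF-beta1 replicates 1 and 2. The group means were 10.3 ± 4.18 and 4.07 ± 1.04 (SD, n = 3 each).

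**Figure D3:**
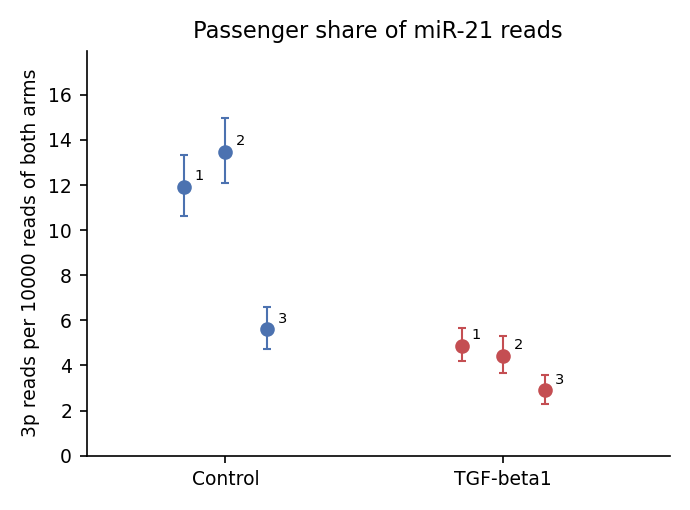
Reads of the passenger arm for every 10000 reads of both arms in each library, with 95% exact intervals of counting error. Control replicates 1 and 2 sit at 11.9 and 13.5, Control replicate 3 at 5.60 and the TGF-beta1 libraries between 2.90 and 4.88.

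On the log2(RPM + 1) scale the guide arm exceeded the passenger arm by 9.91 ± 0.634 in Control and by 11.1 ± 0.342 in TGF-beta1 (SD, n = 3 each). The excess grew by 1.18 ± 0.28 (SE), with an interval of 0.57 to 1.78, which was 2.26-fold, from 1.48 to 3.44 (limma over 84 hairpins, adjusted p = 0.0140). This is the sum of 0.13 for the guide arm and of 1.04, by which the passenger arm fell. The exact two-sided permutation test on the ratio gave p = 0.1, the smallest possible here. Without Control replicate 3 the growth was 1.54, and the call was lost without Control replicate 1 (1.04, limma adjusted p = 0.0686), TGF-beta1 replicate 1 (1.30, 0.0511) or TGF-beta1 replicate 2 (1.25, 0.0790).

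Of the 84 hairpins, 26.2% passed the same test, 17 towards the 5p arm and 5 towards the 3p arm, and the median change was 0.11. The change of miR-21 was 3rd in size, after miR-27a (2.48) and miR-27b (1.23). Its arm excess was also among the most uneven, 5th in size of all 84, where the median excess of one arm over the other was 2.52. The 5p arm was the more abundant in 43 of the 84 hairpins. In the 61 hairpins with both sequences, the more abundant arm began with U in 29 and the minor arm in 9, and miR-21, with U on the guide and C on the passenger arm, was one of those 29.

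**Figure D4:**
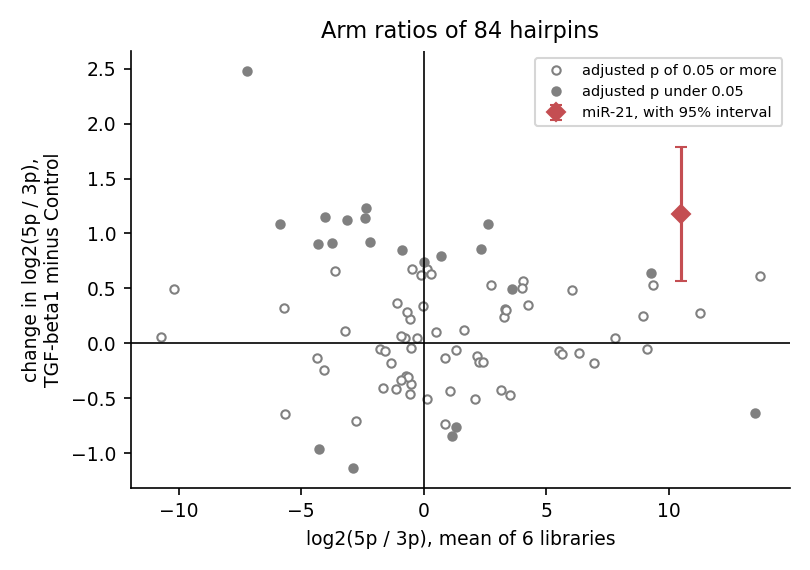
Change of the arm ratio (log2, TGF-beta1 minus Control) against the mean excess of the 5p arm over the 3p arm (log2) for the 84 hairpins, 1 point each, with miR-21 named. miR-21 lies far towards the 5p arm and its change of 1.18 is above the median of 0.11.

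At the level of the guide arm, the neighbours in abundance did not share one direction. Next above it, let-7e-5p rose from 48897 ± 3119 RPM in Control to 69198 ± 2103 in TGF-beta1 (SD, n = 3 each), by 0.50 on the log2 scale (limma, adjusted p = 0.000215). Farther above, let-7b-5p fell by 0.64 (adjusted p = 6.48e-06), and let-7a-5p was at 0.06 (adjusted p = 0.162). Below it, let-7i-5p fell from 13622 ± 1793 to 7585 ± 1360 RPM (limma, adjusted p = 0.00166), and let-7d-5p was at 0.04 (adjusted p = 0.420). miR-10a-5p, next below, fell by 0.14 (limma, adjusted p = 0.0449), but with TMM scaling it was at 0.01. The let-7 family is raised as cells differentiate, and its members differ by few bases, so reads could be split between them or counted for several.

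**Figure D5:**
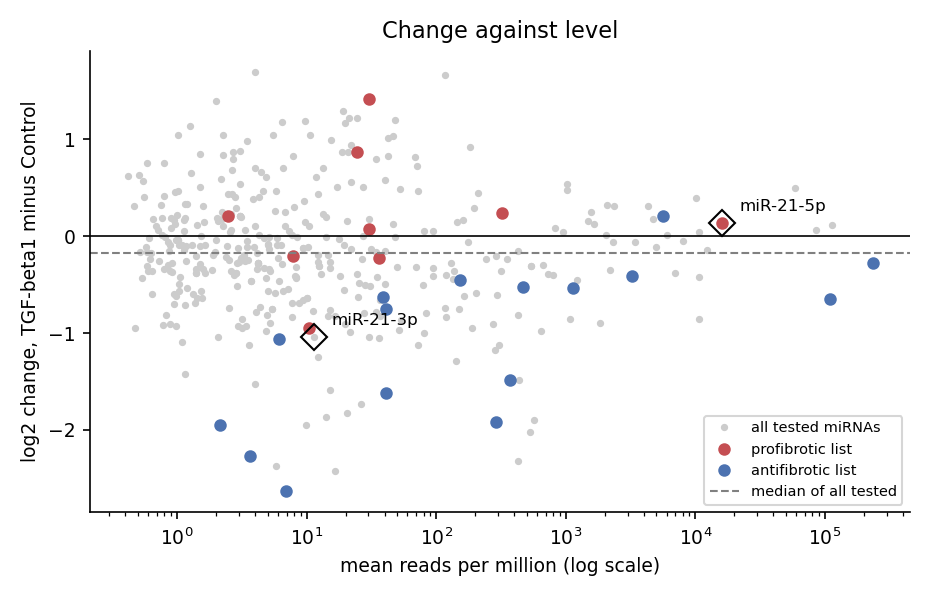
Log2 change (TGF-beta1 minus Control) against mean RPM on a log axis for the 408 miRNAs tested, 1 point each, with both arms of miR-21 named. The guide arm is near the top of the abundance scale with a change of 0.13, and the passenger arm lies at 11.5 RPM with a change of −1.04.

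The miRNAs whose centred log2 values were most like those of the guide arm over the 6 libraries were miR-132-5p, miR-143-3p and miR-192-5p, with root mean square differences of 0.062, 0.075 and 0.078. miR-132-5p was at only 0.672 RPM in Control, where the added 1 RPM flattens changes. miR-143-3p, abundant in mesenchymal cells, differed by 0.010 between the groups, and miR-192-5p by 0.23. Those most like the passenger arm were miR-720, let-7i-3p and miR-339-5p, with differences of 0.19, 0.20 and 0.21. Their changes were −0.90, −1.13 and −0.98 on the log2 scale. These directions follow from the choice by likeness and are given as a description with no test. The value for miR-720, at 1.47 RPM in Control, was −1.98 with a pseudocount of 0.1 and −2.15 with edgeR and TMM. let-7i-3p is itself the passenger arm of a let-7 hairpin.

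Among 12 miRNAs known as profibrotic in the kidney, a list that includes the guide arm, 11 had rows and 9 were tested. By limma, 3 rose, 1 fell and 5 did not pass, with a median of 0.13, which was the guide arm's own value, beside −0.17 for all miRNAs, of which 49.3% passed (71 higher and 130 lower of 408). The share of the list that passed was near that of all miRNAs. The risers were miR-192-5p (0.23, a call lost when any 1 library was left out, limma adjusted p from 0.0633 to 0.109), miR-382-5p (0.87) and miR-433-3p, which went from 16.0 to 44.2 RPM (1.41). miR-199a-5p fell by 0.95, and miR-34a-5p was at −0.22 (adjusted p = 0.413). With TMM scaling the guide arm joined the risers, making 4 higher and 1 lower, with a median of 0.29 beside −0.07 for all. All 408 miRNAs gave 83 higher and 105 lower with that scaling.

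Among 20 miRNAs known as antifibrotic, 16 were tested, of which 1 rose, 15 fell and 7 fell by more than 1, with a median of −0.70. Of all 408 miRNAs, 71 rose, 130 fell and 32 fell by more than 1, with a median of −0.17. Most of the 16 rows belong to shared families (miR-29, miR-30, miR-26, miR-200 and let-7), so they are not independent of each other. The riser was miR-29a-3p (0.21, limma adjusted p = 0.0320), whose family targets collagen mRNAs. Its call was lost without Control replicate 1 (adjusted p = 0.0774), Control replicate 3 (0.0929), TGF-beta1 replicate 2 (0.0831) or TGF-beta1 replicate 3 (0.104), with no filter (0.0501) and with a replicate block (0.0601). let-7c-5p fell by 0.28, let-7b-5p by 0.64 and miR-30a-5p by 0.41. With TMM scaling 1 rose and 13 fell, with a median of −0.54. Of all 408 miRNAs 83 rose and 105 fell with that scaling, with a median of −0.07. In the list, let-7c-5p (−0.12, limma adjusted p = 0.202) and miR-30a-5p (−0.26, 0.0551) then no longer passed.

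Hairpins that hold CAGAC gave 34 rows, both arms of miR-21 among them, of which 14 were tested. As the arms of 1 hairpin share a transcript, these rows are not independent of each other. By limma 0 rose (also 0 at an unadjusted p under 0.05), 8 fell and 6 did not pass, with a median of −0.43. In rows from hairpins without these letters, 300 were tested, of which 57 rose and 100 fell, with a median of −0.16. The rest of the 408 miRNAs tested matched no RefSeq name and are in neither set. Of the CAGAC rows named by level, miR-181d-5p fell by 0.98 (adjusted p = 4.62e-05), miR-146b-5p by 0.51 (0.0143) and miR-199a-3p by 0.31 (0.0219), though miR-199a-3p has the same sequence as miR-199b-3p and its reads cannot be assigned. With TMM scaling 1 rose, the guide arm of miR-21, and 7 fell, and miR-199a-3p no longer passed (−0.16, adjusted p = 0.206). Of the 300 rows without these letters, 66 rose and 80 fell with that scaling. The recovered reads gave 2 risers with edgeR and TMM (the guide arm and miR-344d-3p), 0 with edgeR on library totals and 1 with DESeq2 (the guide arm).

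CAGAC lay in the mature strand itself in 7 rows, of which 5 were tested, and by limma 0 rose (0 also at an unadjusted p under 0.05), 1 fell (miR-199a-5p) and 4 did not pass, where 49.3% of all 408 miRNAs passed (71 higher and 130 lower). The 5 were the guide arm of miR-21, miR-199a-5p, miR-214-3p, miR-344d-3p and miR-215-5p, with a median of 0.13. Scaling changed the count here too, with 1 riser under TMM, 2 with edgeR and TMM, 0 with edgeR on library totals and 1 with DESeq2. Under TMM 83 of all 408 miRNAs rose and 105 fell.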

How the data were processed

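Small RNA libraries of 3 Control and 3 TGF-beta1 samples were analysed. Per the study's methods the authors trimmed and filtered the reads and compared them with known mouse miRNAs using Bowtie, whose version is not given in the sources used here, nor is the counting of reads that match several miRNAs. The deposited table holds RPM (named TPM there, with no scaling by length). The total of each library was taken as the smallest integer searched that turns all its RPM values into whole reads within 0.002 reads. That 100% of them came out whole was thus a condition of the search. Chi-square per degree of freedom between libraries of a group was 43.2 to 137.9, so none was a repeat deposit.

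The test was limma 3.58.1 (R 4.3.3, trended prior) on log2(RPM + 1) for the 408 miRNAs that passed filterByExpr (edgeR 4.0.16, minimum count 10), with Benjamini-Hochberg adjustment. "Rose", "fell" and "passed" refer to adjusted p below 0.05, and a size above 1 on the log2 scale is stated where used. Fold changes on this scale understate those of scarce miRNAs. The arm ratio was fitted in limma over the 84 hairpins whose arms each averaged 1 RPM or more. Exact permutation tests used scipy 1.17.1, and the duplex was predicted with ViennaRNA 2.7.2. Alternatives were other scalings, pseudocounts, filters, edgeR and DESeq2 1.42.0 on the recovered reads, a replicate block and each library left out. TMM scaling with each library left out was added after seeing the data. The fitting scripts were tested on simulated data.

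The members, gene lists and tests were chosen with earlier results of these data known. Named miRNAs are both arms, the 3 neighbours in abundance on either side, the 3 most alike in pattern, and up to 4 of the most abundant of each list, and miR-382-5p, miR-199a-5p, miR-344d-3p, the marker miRNAs given with a change and the miR-27 hairpins were named after their values were seen.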

Additional observations from a re-analysis of the deposited data

Results flagged for a closer look

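The share of reads outside the listed miRNAs was 7.32 percentage points higher in TGF-beta1 than in Control, with ranges of 26.9 to 28.4% and 20.2 to 20.5%, and it stood out because it is signal outside the measured rows. Both arms of miR-21 share this denominator, so it moves their RPM but not their ratio, and what these reads are was not tested.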

How the results depend on the processing

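The direction of both arms and of their ratio held under every alternative run, while the calls did not. The change of the guide arm, 0.13 as reported, passed the adjusted p at 0.27 with upper-quartile or listed-row scaling, 0.29 with TMM (also in edgeR) and 0.35 with median-of-ratios scaling or DESeq2, and ranged from 0.060 to 0.20 with each library left out. The passenger arm, −1.04 as reported, missed the adjusted p at −0.92 when scaled to the listed rows, was −0.59 with a pseudocount of 10 and ranged from −1.43 to −0.82 with each library left out. The growth of the arm ratio, 1.18 as reported, was 0.73 (1.65-fold) with a pseudocount of 10 and ranged from 0.95 to 1.54 with each library left out. The difference in the guide arm's share of listed reads, 0.41 percentage points, was 0.28 to 0.53 with each library left out. Among reads outside the 10 most abundant other rows it was 2.40, on a larger base. There the guide arm made up 14.3%, 13.8% and 14.3% in Control replicates 1 to 3 and 17.8%, 15.6% and 16.2% in TGF-beta1 replicates 1 to 3. The 50 miRNAs past both thresholds became 86 with a pseudocount of 0.1, 17 with a pseudocount of 10, 86 with edgeR (with TMM or library totals) and 77 with DESeq2, and the cause was not tested. Of 358 fits of the 20 other named miRNAs, 55 lost a call, 4 gained one and 7, of 3 miRNAs, changed sign. miR-10a-5p, which passed at −0.14 as reported, was at 0.011 with TMM, 0.074 with median-of-ratios, 0.013 with edgeR and TMM and 0.078 with DESeq2, miR-132-5p ranged from −0.014 to 0.17 with each library left out and was below 0 without TGF-beta1 replicate 1, and miR-143-3p ranged from −0.091 to 0.072 and was below 0 without Control replicate 3 or TGF-beta1 replicate 1.

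The labels do not say whether same-numbered libraries of the groups were paired. Their deviations correlated at −0.08, −0.21 and −0.34, and 0 of 6 libraries correlated best with its own number. With 3 libraries in each group this cannot exclude a pairing. A replicate block left the guide arm at 0.13 (limma, adjusted p = 0.125), the passenger arm at −1.04 (0.00990), the arm ratio at 1.18 (0.0101) and the count past both thresholds at 50. The block lowered the SE of the passenger arm from 0.35 to 0.21 and that of the arm ratio from 0.28 to 0.20. The count of miRNAs at an adjusted p under 0.05 went from 201 to 176. Counting intervals of the passenger share in Control replicates 1 and 3 did not overlap, so the libraries differed by more than counting error.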
